A study of Homo sapiens with 8 samples.

Results

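The genes described here are 10 regulators of the step from G1 into S phase, namely the D-type cyclins CCND1, CCND2 and CCND3, the E-type cyclins CCNE1 and CCNE2, the kinase CDK4, the kinase inhibitors CDKN1B and CDKN2C, the retinoblastoma gene RB1 and the transcription factor E2F1. They were chosen by name, and a probe set (the group of short probes that reads one transcript) counted as a member where the array annotation gave it a single symbol and that symbol was one of these. On the 12 h arrays 8 of 8746 probe sets met this rule, 1 for each of 8 genes, and on the 6 h arrays 15 of 22215 did, for 9 genes. CCNE1 had such a probe set on the 6 h arrays alone, and CDKN2C had none with a single symbol in the annotation used, so its level is not reported here. All 8 probe sets of the 12 h arrays were also on the 6 h arrays.

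The cells were MRC5, a line of human diploid lung fibroblasts, grown in medium with serum. Treated cultures received 10 µM 8-oxoguanine, the oxidised guanine base, and mock cultures received its solvent. Total RNA was hybridised to 8 arrays, 1 per treatment at 6 h and 3 per treatment at 12 h, with a different array type at each time, and each time was compared with its own mock. The 12 h replicates are called technical replicates by extract and nothing says that they came from separate cultures, so a p-value here reflects how the extracts varied, which may be technical alone. The time label and description give 12 h for them, while the treatment protocol names 6 h for all samples, and the time label was followed.

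In proliferating cells, growth factors raise the D-type cyclins, which bind CDK4 or its close relative CDK6 and phosphorylate the RB protein. Phosphorylated RB releases E2F factors, which switch on cyclin E, E2F1 itself and genes of DNA synthesis. Cyclin E with CDK2 then completes the phosphorylation of RB. Inhibitors of the INK4 type, such as the product of CDKN2C, bind the CDK4 and CDK6 kinases, and the product of CDKN1B binds cyclin-kinase complexes, chiefly those of CDK2.

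At 12 h the D-type cyclins split. CCND1 and CCND3 fell, by 35.8% and 36.6%, and CCND2 rose by 26.2%. The messages of CDK4, CDKN1B, RB1 and E2F1 did not pass the test, and CCNE2 was too dim for it. Of the 7 member probe sets tested, 2 fell, 1 rose and 4 did not pass, where 13.2% of all 5248 probe sets tested passed, 6.59% higher and 6.65% lower in treated cells. The members' median log2 fold change was -0.15, against 0.0072 over all probe sets tested. Values are MAS5 signals, a summary of probe brightness on a linear scale, and each log2 fold change is treated over mock from 1 limma fit over all probe sets, with p-values adjusted over all of them by the Benjamini-Hochberg method and a threshold of 0.05. Since the RNA came from whole cultures, fewer cells in a phase of the cycle and less of a message per cell cannot be told apart.

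**Figure D1:**
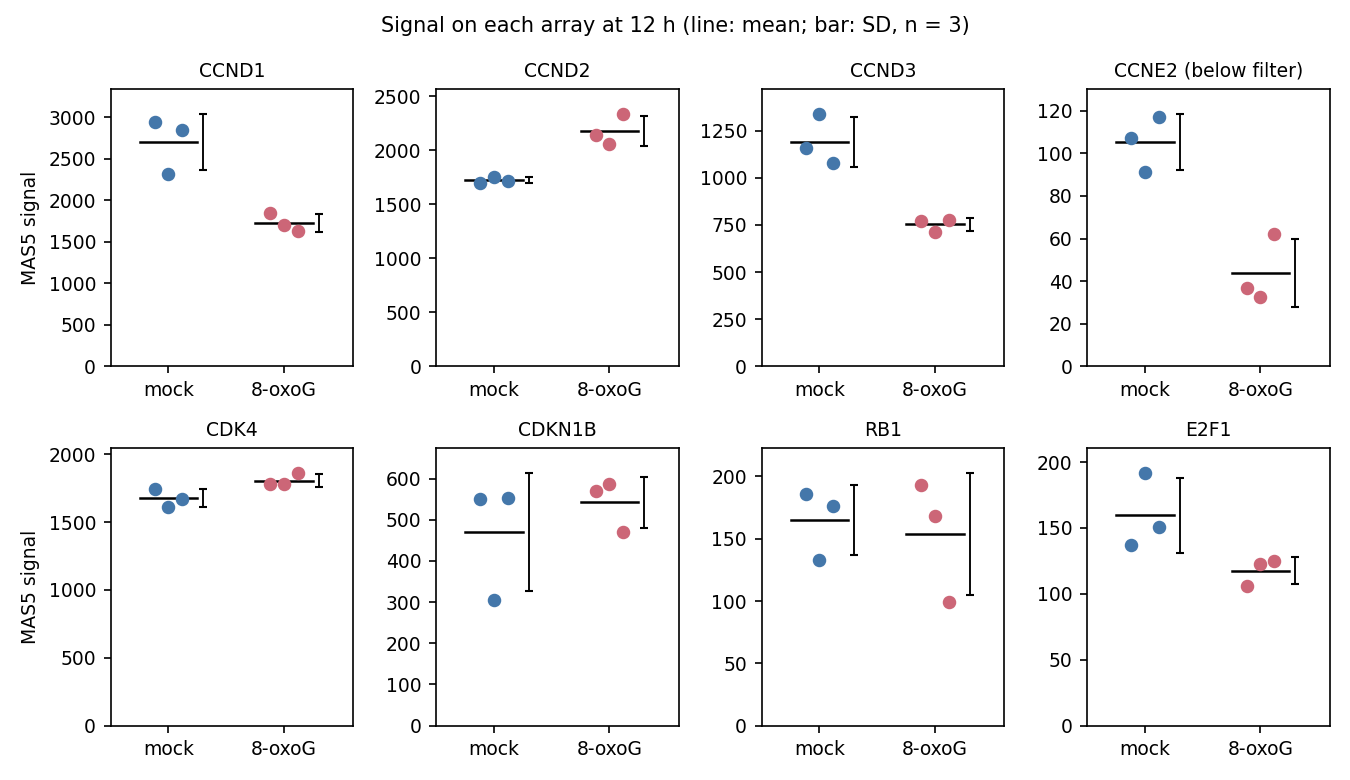
Signal of each member probe set on each 12 h array (vertical axes from 0, a scale per gene), with mock arrays in blue and treated arrays in red, the mean as a line and the SD (n = 3) as a bar. The groups lie apart for CCND1, CCND2, CCND3, CCNE2, CDK4 and E2F1 and overlap for CDKN1B and RB1.

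CCND1 encodes cyclin D1, the D-type cyclin best known in fibroblasts as a target of serum growth factors. Its signal was 2940, 2318 and 2844 on the mock arrays and 1846, 1708 and 1628 on the treated arrays. Every treated array lay below every mock array, and mock replicate 2 was the lowest of its group. The means were 2701 ± 335 in mock and 1728 ± 110 after treatment (SD, n = 3), which gave a log2 fold change of -0.64 (SE 0.10, 95% interval -0.86 to -0.42, limma adjusted p = 0.00307). Of the 5248 probe sets tested, 138 had a more negative fold change.

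CCND3 encodes cyclin D3, which shares the CDK4 and CDK6 partners of cyclin D1. Its signal was 1156, 1337 and 1080 on the mock arrays and 770 (replicate 1), 712 (replicate 2) and 776 (replicate 3) on the treated arrays. The groups were again apart, and the treated arrays lay closer together than the mock arrays. The means were 1191 ± 132 and 753 ± 35.4 (SD, n = 3), and the log2 fold change was -0.66 (SE 0.09, 95% interval -0.87 to -0.44, limma adjusted p = 0.00218). The calls of CCND1 and CCND3 held in all 13 alternative settings, with adjusted p up to 0.0231 and 0.0169.

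CCND2 encodes cyclin D2, the remaining member of the family. Its signal was 1700, 1751 and 1720 on the mock arrays and 2139, 2059 and 2334 on the treated arrays. All treated arrays were higher, and the mock arrays lay within a narrow band. The means were 1724 ± 26.04 and 2178 ± 142 (SD, n = 3), for a log2 fold change of 0.34 (SE 0.07, 95% interval 0.17 to 0.50, limma adjusted p = 0.0144). The call was lost without 8-oxoguanine replicate 1 (log2 fold change 0.35, limma adjusted p = 0.0524) and without the intensity trend in limma (adjusted p = 0.0570).

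Within an array, the signals of the cyclins can be set against each other as a change from the mock mean. The log2 difference between CCND1 and CCND2 changed by -0.97, and the treated arrays stood at -0.85, -0.91 and -1.16 against 0.15, -0.24 and 0.09 on the mock arrays. That between CCND3 and CCND2 changed by -0.99, with treated arrays between -1.05 and -0.93 and mock arrays between -0.13 and 0.15. In both cases the groups were apart, and the exact two-sided permutation p was 0.1, the smallest that 3 arrays against 3 allow. These 2 differences were chosen after the directions of the cyclins had been seen. With CCND1 and CCND3 lower and CCND2 higher on every treated array, the groups had to be apart. The permutation p was thus fixed in advance and adds no support.

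CCNE2 encodes cyclin E2, a partner of CDK2 and itself an E2F target. Its signal was 107, 91.1 and 117 on the mock arrays and 36.8, 32.6 and 62.1 on the treated arrays. The groups were apart, but the mean over all arrays lay under the limit for testing, a signal of 93.9, which removes the dimmest 40% of probe sets. The means were 105 ± 13.1 and 43.8 ± 15.9 (SD, n = 3), and without the filter the log2 fold change was -1.31 (SE 0.33, limma adjusted p = 0.0535), which did not pass. The treated signals lie under the limit, so the size of this difference is uncertain.

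CDK4 encodes the catalytic partner of the D-type cyclins. Its signal was 1744, 1612 and 1673 on the mock arrays and 1782, 1778 and 1858 on the treated arrays. The treated arrays were all higher, by a small margin, and the means were 1676 ± 66.2 and 1806 ± 45.1 (SD, n = 3). The log2 fold change was 0.11 (SE 0.07, limma adjusted p = 0.337), and its 95% interval of -0.04 to 0.26 leaves out a change as large as those of CCND1 and CCND3. Among the members tested, the groups did not overlap at 5 of 7, against 33.9% of all probe sets tested.

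CDKN1B encodes an inhibitor of cyclin-CDK2 complexes that accumulates in resting fibroblasts. Its signal was 551, 304 and 553 on the mock arrays and 570, 586 and 471 on the treated arrays. The groups overlapped, and mock replicate 2 stood well under the other arrays. The log2 fold change was 0.25 (SE 0.21, 95% interval -0.22 to 0.73, limma adjusted p = 0.482), and it turned to -0.032 without mock replicate 2.

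RB1 encodes the retinoblastoma protein, the substrate of the cyclin D kinases. Its signal was 186, 133 and 176 on the mock arrays and 193, 168 and 98.9 on the treated arrays. The groups overlapped, with treated replicate 3 the lowest of all 6. The log2 fold change was -0.15 (SE 0.26, 95% interval -0.73 to 0.44, limma adjusted p = 0.778), and it turned to 0.14 without 8-oxoguanine replicate 3. This interval is wide enough to hold a change of the size seen for CCND1 or CCND2.

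E2F1 encodes an activating E2F factor whose own promoter is a textbook E2F target. Its signal was 137, 191 and 151 on the mock arrays and 106, 123 and 125 on the treated arrays. Every treated array was lower, and the means were 160 ± 28.4 and 118 ± 10.5 (SD, n = 3). The log2 fold change of -0.43 (SE 0.19, 95% interval -0.86 to 0.0071) did not pass (limma adjusted p = 0.180). None of the 50 alternative fits of CDK4, CDKN1B, RB1 and E2F1 gave a call, with adjusted p between 0.114 and 0.941.

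The E2F1 promoter is shown because, of the member promoters searched, it was the only one in which letters of an E2F site were found. The 250 bases before its start site lie on the minus strand at chr20:33686386-33686635 (RefSeq sequence, build GRCh38.p14), with matches in capitals:
E2F1: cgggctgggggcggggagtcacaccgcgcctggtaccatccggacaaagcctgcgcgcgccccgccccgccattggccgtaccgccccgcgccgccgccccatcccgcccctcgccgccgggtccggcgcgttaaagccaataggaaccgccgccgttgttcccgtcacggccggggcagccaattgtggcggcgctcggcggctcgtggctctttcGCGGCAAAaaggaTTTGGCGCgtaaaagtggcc
The search covered TTTCCCGC, TTTCGCGC, TTTGCCGC and TTTGGCGC on both strands, in windows of 300 bases that run from 250 before to 50 after a start site. The E2F1 matches begin 33 and 20 bases before the start and do not overlap. Sequences were matched by symbol for 7 of the 10 members (CCND3, CCNE1, CDK4, CDKN1B, CDKN2C, E2F1 and RB1), and 1 of these 7 had a match, while 3.99% of 27305 genes did. For RB1 the sequences held a single window, with its upstream bases at chr13:48476200-48476449 (plus strand, 38.3% GC). Other start sites of RB1 were not searched, so the lack of a match holds for that window alone. A match is a description of letters and not of binding.

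The rest of the pathway was read from a list of 32 other genes of G1/S control, of which 19 were on the 12 h arrays above the filter. Of these, 1 rose, 2 fell and 16 did not pass, against the 13.2% called among all probe sets, and their median log2 fold change was -0.10. RBL2, which encodes a relative of RB that binds repressive E2F factors in resting cells, rose from 250 ± 38.5 to 529 ± 113 (SD, n = 3), with signals of 268, 206 and 276 on the mock arrays and 420, 521 and 645 on the treated arrays. The groups were apart, and the log2 fold change was 1.07 (SE 0.17, limma adjusted p = 0.00401), called in all 13 alternative settings.

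CDK2, the kinase partner of cyclin E, fell from 621 ± 59.0 to 462 ± 16.9 (SD, n = 3), with -0.42 as its log2 fold change (SE 0.10, limma adjusted p = 0.0218). CKS1B, a small subunit that helps the SCF ubiquitin ligase to recognise CDKN1B protein, fell from 957 ± 49.0 to 749 ± 67.6 (SD, n = 3), with -0.36 as its log2 fold change (SE 0.09, limma adjusted p = 0.0305). Both calls were lost without any one array other than mock replicate 2 (limma adjusted p from 0.0538 to 0.0816 for CDK2 and from 0.0578 to 0.0949 for CKS1B), and that of CKS1B also with no intensity trend (0.0729).

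Inhibitors of the CDKs did not pass. CDKN1A, an inhibitor induced by p53, had 2405 ± 498 in mock and 2258 ± 299 in treated cultures, and CDKN2A, the prototype INK4 locus, had 279 ± 22.7 and 286 ± 8.89 (SD, n = 3). Their log2 fold changes were -0.08 (SE 0.14) and 0.04 (SE 0.12), with limma adjusted p = 0.774 and 0.873. CDKN1C stood at 0.16 (SE 0.19, limma adjusted p = 0.634). The other E2F and partner genes above the filter, E2F3, E2F4, E2F6, TFDP1 and TFDP2, had log2 fold changes between -0.21 and 0.18, and none passed.

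Below the filter lay CDKN2B, CDKN2D, RBL1, E2F2, E2F5 and CDC25A. CDC25A, the phosphatase that activates CDK2, had signals of 51.7, 91.2 and 72.9 on the mock arrays and 17.96, 18.92 and 43.3 on the treated arrays. CDKN2D, an INK4 inhibitor like CDKN2C, had 86.4, 67.1 and 93.0 against 53.0, 57.7 and 50.2. E2F5, which encodes a repressive E2F factor, had 56.0, 56.1 and 52.2 against 31.1, 30.2 and 16.2. The treated arrays were lower throughout for these 3 genes, while E2F2 was higher on all treated arrays (at most 12.5 in mock and at least 14.1 in treated cells) and CDKN2B and RBL1 overlapped. In the fit without a filter none of these 6 passed, with limma adjusted p from 0.0944 (CDC25A) to 0.425. Groups were apart at 33.9% of the probe sets above the filter, and the share below it was not counted. Every E2F2 signal lay under 28.9, the 20th percentile of all 12 h signals, so its direction is uncertain. The treated CDC25A signals of 17.96 and 18.92 and the treated E2F5 signal of 16.2 also lay under it. The sizes of those differences are therefore uncertain too.

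**Figure D2:**
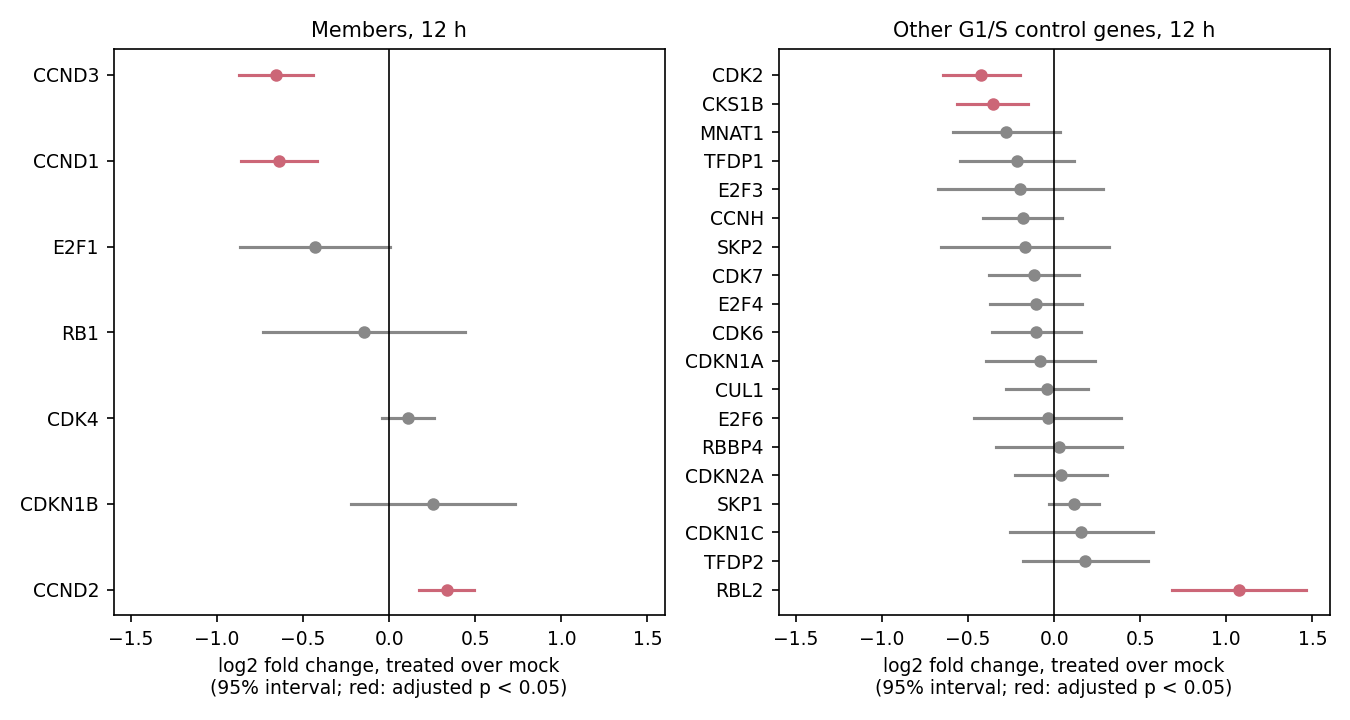
Log2 fold change at 12 h (horizontal axis, treated over mock) with its 95% interval for the 7 member probe sets tested and for 19 other genes of G1/S control, red where the limma adjusted p passed the threshold. CCND3 and CCND1 lie left of 0 and CCND2 right of it among the members, and RBL2, at 1.07, lies to the right of all other genes plotted.

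Genes that E2F factors are known to switch on for DNA synthesis were the next step of the pathway. Of a list of 19, 14 were tested at 12 h, and 11 of them fell, none rose and 3 (CDK1, POLA1 and MCM6) did not pass, with a median log2 fold change of -0.78 against 0.0072 over all probe sets tested. Without single arrays, between 9 and 11 of the list fell. The counts stand beside the 6.65% of all probe sets called lower. This list holds genes known to fall from earlier results of these data, so it is no independent evidence.

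RRM2, the regulated subunit of ribonucleotide reductase, had signals of 1689, 1943 and 1794 on the mock arrays and 745, 772 and 855 on the treated arrays. TYMS, thymidylate synthase, had 1913, 2026 and 1874 against 1003, 980 and 1161. Neither gene's groups overlapped, and the log2 fold changes were -1.19 (SE 0.09) and -0.89 (SE 0.08), with limma adjusted p = 5.7e-05 and 0.000263.

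CDC6, a loader of the replicative helicase, had 240, 231 and 212 on the mock arrays and 105, 96.8 and 85.8 on the treated arrays. MYBL2, a transcription factor of cycling cells, had 190, 236 and 186 against 109, 74.0 and 124. The groups of each were apart, with log2 fold changes of -1.25 (SE 0.17, limma adjusted p = 0.00152) and -1.02 (SE 0.23, limma adjusted p = 0.0165), and the call of MYBL2 was lost without mock replicate 2 (adjusted p = 0.0535).

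CCNA2, the cyclin that follows cyclin E, fell from 499 ± 20.8 to 254 ± 16.9, and PCNA, the sliding clamp of DNA polymerases, from 918 ± 197 to 482 ± 22.9 (SD, n = 3). MCM2, MCM3 and MCM5, subunits of the replicative helicase, and TK1 and RRM1, enzymes of nucleotide supply, also fell, with log2 fold changes between -0.83 and -0.47. The call of MCM5 was lost without mock replicate 1 (limma adjusted p = 0.0522) or 2 (0.0528).

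Of 10 E2F target genes that fell and had a RefSeq promoter, 5 held one of the motifs (CDC6, MCM2, MCM3, PCNA and TYMS), while 3.99% of all 27305 genes did. Over the whole list, fallen or not, 10 of 16 genes with a promoter held one. The list was drawn from genes known to be under E2F control. For 3 of them the match lies at least 19 bases upstream of the start, and 30 bases around it are given here to show the letters beside those of E2F1 (build GRCh38.p14, motif or its reverse complement in capitals), 174, 59 and 39 bases before the start:
MCM3 (chr6:52284898-52284927, minus strand): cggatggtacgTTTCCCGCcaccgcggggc
PCNA (chr20:5126663-5126692, minus strand): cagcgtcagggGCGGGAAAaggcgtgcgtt
TYMS (chr18:657603-657632, plus strand): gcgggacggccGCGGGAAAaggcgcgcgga
The PCNA and TYMS matches read TTTCCCGC on the strand opposite to the one printed. Among the 28 other G1/S control genes with a promoter, 6 held a motif.

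**Figure D3:**
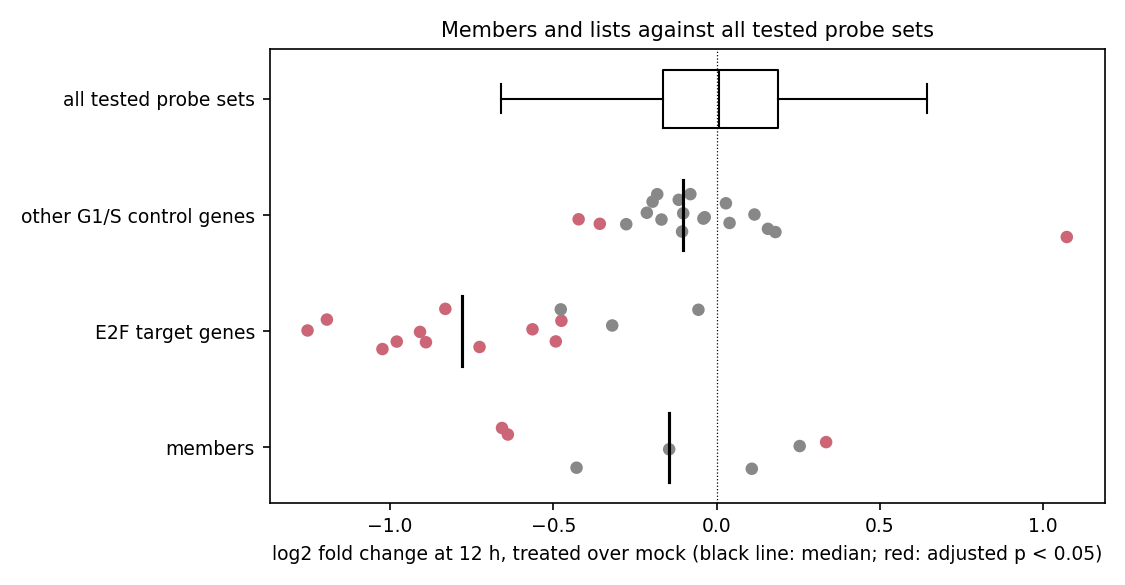
Log2 fold changes at 12 h (horizontal axis) of all 5248 tested probe sets (box of quartiles, whiskers over the central 95%), of the other G1/S control genes, of the E2F target genes and of the members, with red points past the threshold and black lines at the medians. The 14 E2F target genes all lie below 0, with a median of -0.78, while the members lie on both sides of 0.

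The gene profiles closest to that of CCND3, the called member with the smallest p, were sought over the 6 arrays of the 12 h set. Likeness was the root mean square difference of log2 signals taken relative to each probe set's mock mean, over 4744 probe sets of other genes. The 5 closest were AURKB, a mitotic kinase (0.07), ADAM19, a membrane protease (0.07), ITGA5, an integrin subunit (0.08), NUP88, a nuclear pore protein (0.08), and PLAU, or urokinase (0.08). Their log2 fold changes lay between -0.72 and -0.60. These values describe the arrays only.

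At 6 h there was 1 array per treatment, so no difference has a replicate check and none was tested. Of 12 member probe sets above the 6 h filter (a signal of 148, the median), 1 was at least 1.5-fold lower on the treated array and none was at least 1.5-fold higher, where 5.44% and 3.32% of all 11108 probe sets kept were. Of the 12, 9 had a ratio below 0, against 54.4% of all kept, and the median log2 ratio of the 12 was -0.16 against -0.032. CCND1, CCND2 and RB1 each had more than 1 probe set among the 12, all below 0 as deposited, so the 9 are not 9 separate genes. With median centring, which moved all ratios up by 0.12, 7 of 12 lay below 0 (38.9% of all kept), and with quantile normalization 8 did (47% of all kept).

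The D-type cyclins had small ratios at 6 h. The probe set of CCND1 that both array types share read 4256 on the mock and 4095 on the treated array, a log2 ratio of -0.06, and its other probe set read 3498 and 2849, a ratio of -0.30. The shared probe set stood at 0.06 after median centring and at -0.21 after quantile normalization. CCND2 had log2 ratios of -0.21 (2722 and 2353, the shared probe set), -0.31 and -0.06 over 3 probe sets, the last lying above 0 after median centring (0.05) and after quantile normalization (0.04). CCND3 read 1164 on the mock and 1266 on the treated array, a log2 ratio of 0.12.

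The E-type cyclins were dim. CCNE1, which encodes cyclin E1, read 158 on the mock and 85.6 on the treated array, a log2 ratio of -0.88, below the filter. CCNE2 read 208 and 163 on the shared probe set, a log2 ratio of -0.35, and 134 and 106 on the other, a ratio of -0.33, below the filter. All 3 probe sets of these cyclins were lower on the treated array under each of the 3 scalings.

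CDK4 read 2779 on the mock and 3388 on the treated array, a log2 ratio of 0.29, and CDKN1B read 1254 and 936, a ratio of -0.42. RB1 gave the lowest ratio among members above the filter, -0.93 on the shared probe set (967 and 508), but its other probe set read 258 and 237, a ratio of -0.12. E2F1 also disagreed between probe sets, with 232 and 269 on the shared one, a log2 ratio of 0.22, and 83.6 and 47.3 on the other, a ratio of -0.82, below the filter.

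Of the other G1/S control genes at 6 h, 2 of 20 kept were at least 1.5-fold lower and none higher. Among all probe sets kept, 5.44% were lower and 3.32% higher by this measure. The lower genes were CDK6, the second cyclin D kinase, with 282 on the mock and 101 on the treated array (log2 ratio -1.48), and RBL2, with 598 and 327 (-0.87) on the probe set that both array types share. The treated CDK6 signal lay under the 6 h limit of 148, and CDK6 was kept through its mock signal. The size of its ratio is therefore uncertain. A second RBL2 probe set read 182 and 198, a ratio of 0.12. At 12 h the log2 fold change of CDK6 was -0.10 (SE 0.12, limma adjusted p = 0.619). The E2F target genes, 17 kept at 6 h, had 9 ratios below 0, near the 54.4% of all kept. Their median log2 ratio was -0.00013, against -0.032 over all kept. Of these genes 1, the helicase subunit MCM4, was at least 1.5-fold lower (1436 and 881, log2 ratio -0.70, with -0.26, -0.12 and 0.06 on its other probe sets), against 5.44% of all kept. Time, array type and number of arrays differed together, so the times were not tested against each other.

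**Figure D4:**
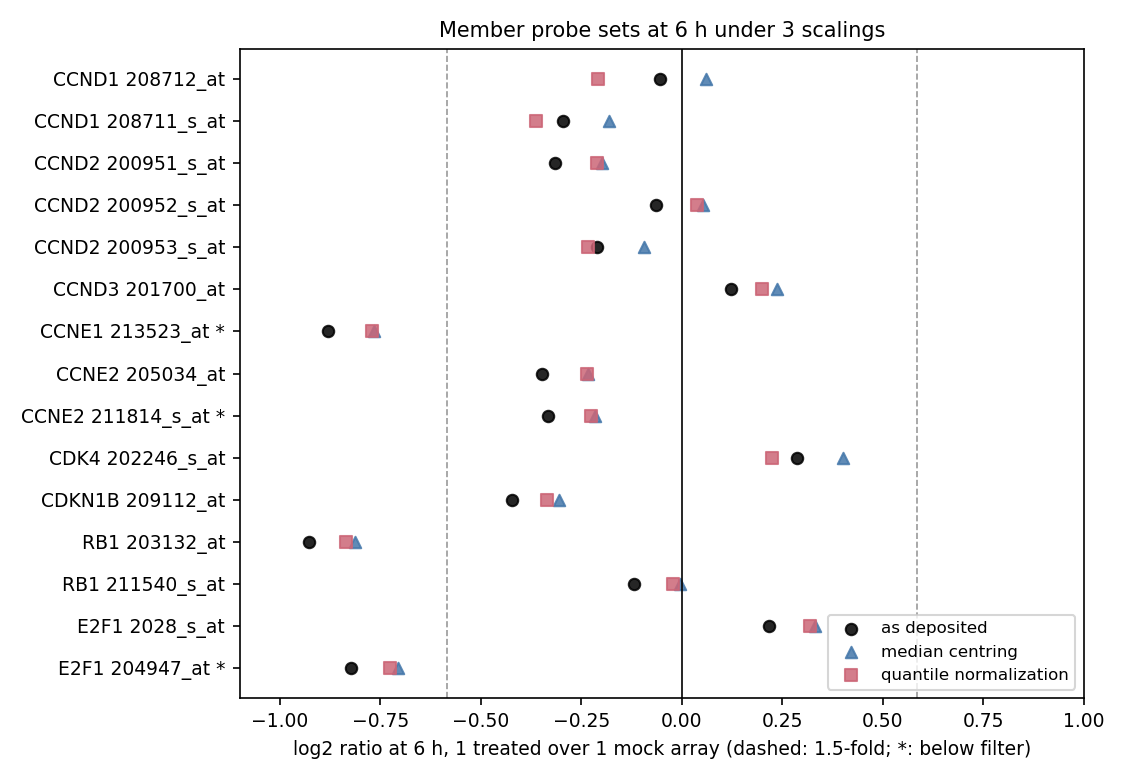
Log2 ratio at 6 h (horizontal axis, 1 treated over 1 mock array) of the 15 member probe sets, as deposited (circles), with median centring (triangles) and with quantile normalization (squares), with dashed lines at 1.5-fold and a star beside probe sets below the filter. The shared RB1 probe set lies at -0.93 and the other RB1 probe set at -0.12.

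Facts of the whole arrays bear on these values. Array medians lay between 157 and 165 at 12 h and were 143 (treated) and 155 (mock) at 6 h, and the number of arrays limits the precision. At 12 h all 9 measured fibroblast markers were above the filter, with summed signals of 63576 to 76683 in mock and 62318 to 76127 in treated cells. Among markers of other cells, 3 of 6 epithelial (KRT8, KRT18 and KRT19), 1 of 5 endothelial (PECAM1) and 2 of 4 blood markers (HBB and CD3E) were above it, and the summed signal of each list, which its brightest genes set, overlapped between the groups. Single markers did change at 12 h, with 2 of 9 fibroblast markers called higher (LUM, from 143 ± 28.7 to 297 ± 14.9, and PDGFRB, log2 fold change 0.30), 1 lower (S100A4, -0.58) and 1 of 3 epithelial markers lower (KRT19, from 277 ± 6.24 to 116 ± 21.1, SD, n = 3). Among all probe sets tested, 6.59% were called higher and 6.65% lower. The part of these marker changes in the other results was not tested. At 6 h the summed signal of the 12 fibroblast markers was 69759 on the mock and 124248 on the treated array, with a median log2 ratio of 0.77 as deposited and 0.085 after quantile normalization. The ratio of the actin control from the 3′ and 5′ ends of the message was 0.999 to 1.07 on the treated and 0.889 to 0.995 on the mock arrays at 12 h, and its part in the results was not tested.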

How the data were processed

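Expression was read on single-colour short-oligonucleotide arrays. The values deposited by the authors are linear intensities, 1 for each probe set on each array, from MAS5 according to the submitters' processing notes. Its version and settings and the genome build were not stated in the labels. Trimmed means were between 491 and 495 without controls, so the arrays had been scaled. Log2 intensities were used as they stood. Controls were dropped, as were probe sets below the 40th percentile of mean log2 value at 12 h (5248 of 8746 kept) and the 50th at 6 h. Groups came from sample titles and time labels. At 12 h limma 3.58.1 under R 4.3.3 compared treated with mock arrays (lmFit, eBayes with an intensity trend, two-sided), and the script was tested on simulated data. There 81 of 100 simulated 2-fold changes and 52 of 100 simulated 1.5-fold changes were recovered, with 4 false calls. A gene that did not pass may therefore still have changed. At 6 h log2 ratios were taken with no test. Gene names came from the platform annotation, and all 157 member, list and marker probe sets agreed in symbol with RefSeq (GRCh38.p14) by gene ID. For a list, the brightest probe set of a gene was used, and the median and counts were given. All members were described, together with all list genes past the threshold at 12 h and the 5 profiles nearest to the called member with the smallest p. Some list genes that did not pass or lay below the filter were described as well. The members and lists were chosen with earlier results of these data known. Alternatives were median centring, quantile normalization, no or stricter filters, an added constant, no trend, a replicate block, gene means and leaving out each array.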

Additional observations from a re-analysis of the deposited data

Results flagged for a closer look

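Several genes had 12 h groups that did not overlap and a 6 h ratio of the opposite sign on the same probe set. Groups did not overlap at 33.9% of all probe sets tested at 12 h, and 54.4% of all kept at 6 h had a ratio below 0. The share of all probe sets with opposite signs was not counted, so the genes named here are not shown to be unusual. Whether the times differ was not tested, since the arrays also differed in type and number. Among the members, CCND2 had a log2 fold change of 0.34 at 12 h and a log2 ratio of -0.21 at 6 h. CCND3 had -0.66 and 0.12, and E2F1, not called at 12 h, had -0.43 and 0.22. Of the other G1/S control genes, RBL2 had 1.07 and -0.87, and CKS1B had -0.36 and 0.28. Of the E2F target genes, TYMS had -0.89 and 0.20, RRM2 had -1.19 and 0.17, MCM2 had -0.83 and 0.13, and MCM5 had -0.56 and 0.20. Of the genes with a profile like that of CCND3, AURKB had -0.63 and 0.15, ITGA5 had -0.62 and 0.14, and PLAU had -0.72 and 0.36. The 6 h signs of all 12 genes were the same after median centring and after quantile normalization, but the latter left TYMS at 0.0054 and RRM2 at 0.043. At 6 h a further probe set had the other sign for RRM2 (-0.025), for RBL2 (0.12) and, below the filter, for E2F1 (-0.82).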

How the results depend on the processing

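At 12 h the falls of CCND1 and CCND3 passed in all 13 alternatives, the rise of CCND2 in 11 and RBL2 in all 13. With no intensity trend 0 members were called higher and 1 other G1/S control gene lower. With the replicate number as a block that count was also 1 (the call of CKS1B was lost, limma adjusted p = 0.0540), and no member's call changed. Same-numbered extracts had correlations of 0.076, -0.15 and -0.050 in their deviations, and differently numbered ones between -0.18 and 0.20. These values show no pairing by number, but with 3 arrays per group they cannot exclude it. Without single arrays, all calls numbered 371 to 652 (higher 184 to 328, lower 187 to 324), members called higher 0 to 1 and other G1/S control genes called lower 0 to 2. Without single arrays CDKN1B ranged from -0.032 (without mock replicate 2) to 0.40 and RB1 from -0.34 to 0.14 (without 8-oxoguanine replicate 3), so both changed sign. Without a filter at 6 h, 3 member probe sets were at least 1.5-fold lower, since dimmer ones were then counted. Dim signals near or below the filter threshold limit the values of CCNE1, CCNE2 and E2F1, and those of RB1 at 12 h. At 6 h the shared RB1 probe set was well above the filter (967 on the mock and 508 on the treated array). Its ratio there is limited by 1 array per treatment and by the second RB1 probe set, at -0.12.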
